A study of Mus musculus with 4 samples.

Results

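The wells described here came from mouse embryos that had received a morpholino against NKX1-2, and the question was how their transcripts changed from the morula to the blastocyst. A well was taken as an NKX1-2 well where the deposited barcode table marks it so, and it was kept with at least 2000 detected genes. This gave 186 wells out of 384 on the 4 plates of the study, or out of 192 NKX1-2 wells before the filter. The first and second morula plates gave 48 and 47 of them, and the first and second blastocyst plates 47 and 44. Each plate also held wells from embryos with a control morpholino, called CTRL wells here, of which 182 were kept. Both groups were thus injected, and no uninjected embryos enter the comparison. Morpholinos bind a message and stop its translation or splicing, so it need not lower the target's RNA. The sources used here do not give strain, embryo age in hours or the number of embryos, and no label ties a well to an embryo.

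NKX1-2 is a homeobox transcription factor, and the title of the series ties it to Wnt signalling and to development before implantation. During that time the compacted morula turns into the blastocyst. Its outer cells form the trophectoderm, a pumping epithelium that fills a cavity and later makes the placenta, while the inner cell mass holds the pluripotent cells and, later, the primitive endoderm. The switch draws on Hippo signalling through TEAD4, on CDX2 and GATA3 in outer cells, and on FGF4 from inner cells, along with junction proteins, keratins and active metabolism.

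Counts were summed over the wells of a plate, so the plate is the replicate and n = 2 for each stage and morpholino. Whether the plates of a stage came from separate batches of embryos is not given, and p-values measure only the spread between plates. The 4 NKX1-2 sums held 2372573 and 2398605 counts in the morula plates and 1412197 and 1685358 counts in the blastocyst plates. Levels are CPM, counts scaled to a common library size, after TMM normalisation over the 27453 genes used. Fold changes are blastocyst over morula on the log2 scale, and a value in brackets after a gene's levels is its log2 fold. The standard error (SE) was worked back as the size of the log2 fold over the square root of edgeR's F statistic. It is therefore rough where the fold is near 0. A gene passed when the p-value of edgeR's quasi-likelihood test, adjusted by Benjamini-Hochberg over all genes fitted, was under 0.05. Nkx1-2 itself had 0 counts in every well kept, at both stages and with both morpholinos, so the knockdown cannot be checked from these counts. Of the marker genes listed for cumulus cells, blood and fibroblasts, 8 of 14, 6 of 14 and 5 of 10 had no count in any NKX1-2 sum. The summed level of the cumulus list was 127.5 to 136.8 CPM in the NKX1-2 morula plates and 29.7 to 34.4 CPM in the blastocyst plates. Most of it was Amhr2, the receptor gene of anti-Muellerian hormone, with 126 and 122 CPM in the morula plates and 28.7 and 30.7 CPM in the blastocyst plates. The part of such cells in the results was not tested. Pou5f1, which marks cells of the early embryo, was found in every NKX1-2 plate.

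The morula and blastocyst files differ in ways that touch every stage comparison. A run of 344 neighbouring genes, from U2af1 to V1rg10 in file order, had no count in any morula plate, yet held 1.72% and 1.71% of the NKX1-2 counts in the blastocyst plates. They were left out. Genes of ribosomal proteins took 11.9% and 11.2% of the NKX1-2 counts in the morula and 22.3% and 22.2% in the blastocyst, and were left out as well. Some widely expressed genes stood at almost nothing in the morula. Gapdh, a glycolytic enzyme that all cells use, had 1.13 and 0.552 CPM in the morula plates and 204 and 184 CPM in the blastocyst plates, with 28.1% shared sequence as defined next. Genes that were higher in the blastocyst by large factors were often genes whose reads can be shared with another gene. Sharing is given as the percent of a gene's 31-base transcript stretches that another gene also holds, together with the percent of its exonic bases overlapped by another gene. One of these values was over 10% in 77.6% of the 49 genes higher by more than 5 on the log2 scale, in 49.5% of the 99 genes higher by 3 to 5, and in 24.9% of all 8608 genes fitted. Among the 47 genes lower by more than 5 it was 31.9%. The matrices of the stages also differ in their header lines, and the stage and the way the reads were counted cannot be told apart. Genes named below have at most 10% of shared or overlapped sequence unless their value is given. The comparison with CTRL wells is made within plates each of which is a single matrix.

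**Figure D1:**
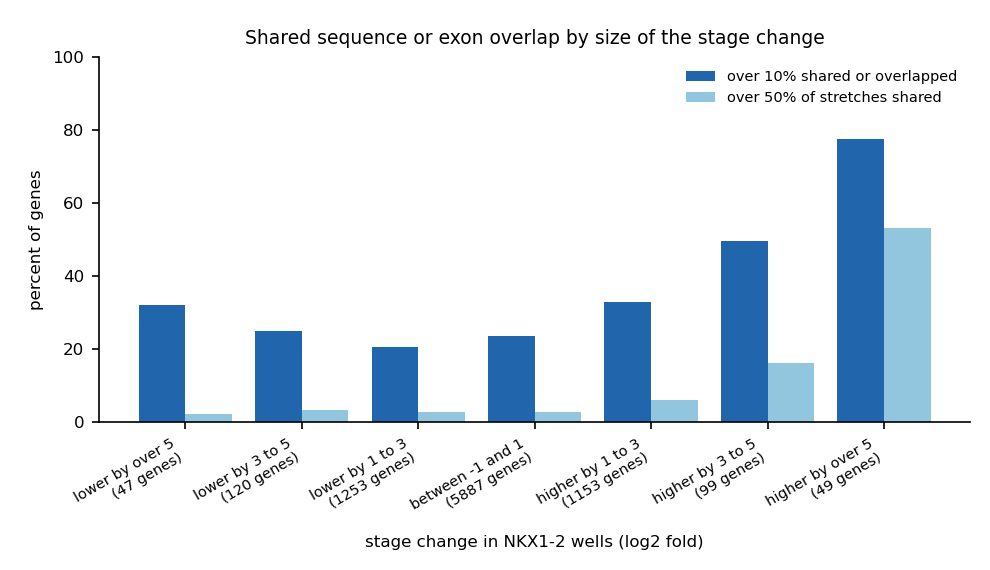
Share of genes (y axis, percent) with over 10% shared or overlapped sequence (dark bars) or over 50% of stretches shared (light bars), by the stage change in NKX1-2 wells (x axis, log2 fold). The share rises to 77.6% in the 49 genes higher by over 5, and is 23.4% in the 5887 genes within 1 of no change.

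In NKX1-2 wells, 3900 of 8608 genes passed between the stages (45.3%), with 1879 higher in the blastocyst (21.8%) and 2021 lower (23.5%). Of these, 1209 were higher and 1311 lower by more than 1 on the log2 scale. The median of all genes was -0.01, so the groups of genes below are read against a centre near 0. Their rises and falls are read against the 21.8% and 23.5% over all genes fitted. Among the 6421 genes fitted with at most 10% of shared or overlapped sequence, 1225 were higher and 1581 lower, with a median of -0.06. In 73.2% of the genes fitted, the 2 plates of one stage lay entirely above the 2 plates of the other. Leaving out the second morula plate moved the number of genes that passed to 2368, against 3900 with all 4 plates. The counts are sums over wells, so a larger share of cells of a type and more RNA per cell cannot be told apart.

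The largest increases went to an endocytic receptor and to genes with shared sequence. Lrp2, which codes for megalin, a large receptor that takes up proteins and lipids from outside the cell, had 1.13 and 6.07 CPM in the morula plates and 242 and 231 CPM in the blastocyst plates. Its levels did not overlap between the stages (log2 fold 6.01, SE 0.33, edgeR adjusted p = 8.87e-11). The other 14 of the 15 largest increases all had over 10% of shared or overlapped sequence. Among them Zbed5, derived from a transposon, had the least, 10.4% (5.71). Ilk, the integrin-linked kinase, and Pdcd2, a ribosome assembly factor, had 0 counts in both morula plates. With the morula set to a floor of 3 counts over both plates, Ilk was at least 139-fold higher in the NKX1-2 blastocyst and Pdcd2 at least 111-fold. Their shared sequence is 78.4% and 91.8%. Med10, Ftl1 and Actg1, coding for a Mediator subunit, a ferritin chain and gamma actin, were higher by 8.81, 8.21 and 6.76, with 90.3%, 64.1% and 40.2% shared.

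The largest decreases included genes whose names belong to other tissues. Dct, a melanin synthesis enzyme, had 199.8 and 191 CPM in the morula plates and 0 and 0 CPM in the blastocyst plates. It was at least 131-fold lower in the blastocyst. Map7d1, a microtubule-binding protein gene, was found at 160.4 and 140.2 CPM in the morula plates and 1.06 and 0.929 CPM in the blastocyst plates (log2 fold -7.11, SE 0.42, edgeR adjusted p = 9.34e-11). Lgr5, an R-spondin receptor and Wnt target, fell (-5.55). Map7d1 and Lgr5 held 1 count each in either NKX1-2 blastocyst plate, so the sizes of their decreases rest on few counts. The olfactory receptor gene Olfr1270, which has 13% shared sequence, had 483 and 440.5 CPM in the morula plates and 0 and 0 CPM in the blastocyst plates, at least 310-fold lower. Of the 8 genes with 0 counts in every blastocyst well and at least 20 CPM in the NKX1-2 morula, 3 had over 10% of shared or overlapped sequence. Of the 9 genes with the opposite pattern, 8 did.

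The transcription factors of the trophectoderm moved in both directions. Of 14 listed factors fitted, 6 rose and 4 fell, with a median of 0.43. Gata3, a zinc finger factor that helps to specify the trophectoderm, had 33.8 and 45.8 CPM in the morula plates and 166 and 117 CPM in the blastocyst plates. The blastocyst plates were both higher (log2 fold 1.83, SE 0.24, edgeR adjusted p = 4.22e-06). Cdx2, the homeobox factor that sets up the outer lineage, was low at both stages, with 3.38 and 8.83 CPM in the morula plates and 19.1 and 12.1 CPM in the blastocyst plates (log2 fold 1.33, SE 0.50, edgeR adjusted p = 0.0355). Klf6, a Kruppel-like factor, went from 3.94 and 3.31 to 46.7 and 65 CPM and rose by 3.93. Elf3, an ETS factor of epithelia, went from 16.3 and 34.8 to 276 and 209 CPM (3.25). Other factors of the list fell. Tead4, the partner of YAP that opens the trophectoderm program, had 489 and 445 CPM in the morula plates and 98.7 and 103 CPM in the blastocyst plates (log2 fold -2.20, SE 0.16, edgeR adjusted p = 2.3e-09). Hand1, a basic helix-loop-helix factor of trophoblast giant cells, had 420.0 and 709.8 CPM in the morula plates and 52 and 115 CPM in the blastocyst plates (log2 fold -2.73, SE 0.46, edgeR adjusted p = 0.00968). Tfap2c and Klf5, which act in the trophectoderm and in pluripotent cells, fell (-1.06 and -0.67).

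Genes of the trophectoderm as an epithelium rose more often than they fell. Of 15 keratin and endocytic genes fitted, 8 rose and 3 fell, with a median of 1.42; among the 10 with little shared sequence, 6 rose and 2 fell. Dab2, an adaptor that brings megalin into coated vesicles, had 18.6 and 21.5 CPM in the morula plates and 269.6 and 209 CPM in the blastocyst plates (log2 fold 3.58, SE 0.22, edgeR adjusted p = 2.06e-10). Cubn, which codes for cubilin, the partner of megalin, was scarce in the morula, with 0.563 and 0.552 CPM in the morula plates and 10.6 and 12.1 CPM in the blastocyst plates (4.16). Amn codes for amnionless, which carries cubilin to the membrane, and it fell, from 29.3 and 30.9 to 6.37 and 5.58 CPM (-2.31). Ptges, a prostaglandin E synthase, rose by 3.43. The keratin partners parted: Krt18, with 11.4% shared sequence, had 24.2 and 19.9 CPM in the morula plates and 239 and 196 CPM in the blastocyst plates (3.31), while Krt8, with 36% shared, did not pass, at 88.4 and 54.6 to 108 and 87.4 CPM (0.46, SE 0.24). Fabp3, a fatty acid binding protein gene with 50.1% shared, rose by 2.85. Acsl4, which activates long-chain fatty acids, fell by 1.58.

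Pluripotency genes fell more often than they rose. Of 24 fitted, 13 fell and 4 rose, with a median of -0.43; of the 13 with little shared sequence, 8 fell and 2 rose. Klf2, a naive pluripotency factor, had 1012 and 1031 CPM in the morula plates and 137 and 169 CPM in the blastocyst plates (log2 fold -2.72, SE 0.15, edgeR adjusted p = 3.34e-11). Spic, an ETS factor, went from 1071 and 1568 to 204 and 257 CPM (-2.50). Klf4 and Esrrb, also of the naive network, fell (-2.04 and -1.21). Tdgf1, the Nodal co-receptor Cripto, fell by 1.98 and has 12.6% shared sequence. Tfcp2l1 went against this direction, with 70.4 and 89.97 CPM in the morula plates and 276 and 281 CPM in the blastocyst plates (1.81). Gdf3, a TGF-beta family ligand, rose by 1.12. The central factors themselves moved little. Nanog, with 10.7% shared sequence, had 90.1 and 85.6 CPM in the morula plates and 99.8 and 134 CPM in the blastocyst plates and did not pass (0.43, SE 0.20). Pou5f1, with 14.2% shared, had 138 and 187 CPM in the morula plates and 119.9 and 124 CPM in the blastocyst plates and did not pass either (-0.40, SE 0.19). Sox2 was at 15.8 CPM or less in every NKX1-2 plate and did not pass (0.65, SE 0.49).

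Primitive endoderm genes moved in both directions: over the 12 members fitted, 5 rose and 4 fell. Among the increases, Lamb1, a laminin chain, had 1.69 and 5.52 CPM in the morula plates and 34 and 28.8 CPM in the blastocyst plates (3.09), and Col4a1 and Col4a2, the collagen IV chains, rose by 2.87 and 1.90. The transcription factor genes Gata4 and Gata6 fell. Gata4 had 58 and 48 CPM in the morula plates and 1.06 and 3.72 CPM in the blastocyst plates (log2 fold -4.36, SE 0.47, edgeR adjusted p = 5.31e-07) and Gata6 had 381 and 322 CPM in the morula plates and 191 and 214 CPM in the blastocyst plates (-0.78). Cited1, a transcriptional co-regulator, and Ctsh, a lysosomal protease gene, were the other decreases (-1.05 and -1.49). Sox17 and Sox7, which also act in this lineage, had too few counts to be fitted.

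**Figure D2:**
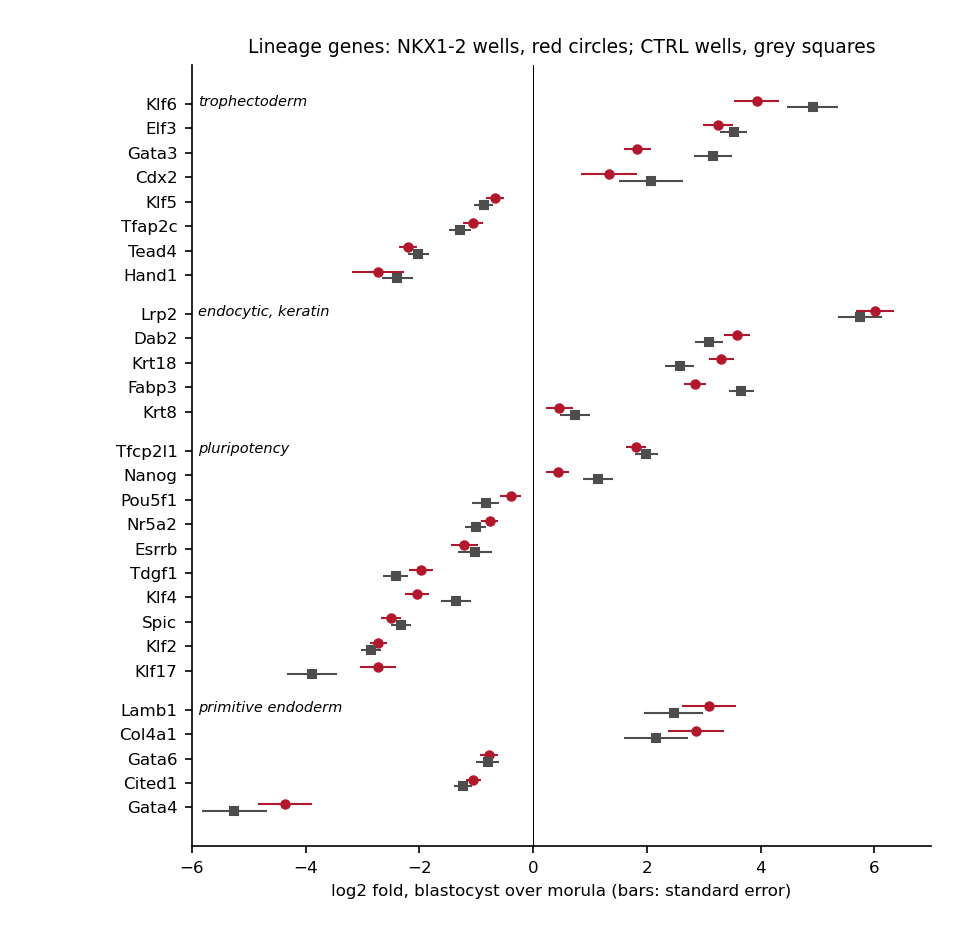
Stage change (x axis, log2 fold, with SE as bars) of lineage genes (y axis) in NKX1-2 wells (red circles) and CTRL wells (grey squares), 2 plates per stage. Gata3 was higher in the blastocyst by 1.83 in NKX1-2 wells and by 3.16 in CTRL wells, and Klf2 was at -2.72 and -2.86.

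Actin and myosin genes rose far more often than they fell. Of 43 actin genes fitted, 27 rose and 3 fell (median 0.73), and of the 26 with little shared sequence 15 rose and 2 fell. Myh9, the non-muscle myosin heavy chain, had 29.8 and 32 CPM in the morula plates and 114 and 77.1 CPM in the blastocyst plates (log2 fold 1.63, SE 0.25, edgeR adjusted p = 3.89e-05). Tpm1, a tropomyosin, went from 85 and 97.2 to 265 and 201 CPM (1.36). Tmsb4x, an actin monomer binder on the X chromosome, had 9.01 and 17.1 CPM in the morula plates and 36.1 and 57.6 CPM in the blastocyst plates (1.85). All 3 decreases were subunits of the ARP2/3 complex, Arpc1a, Arpc1b and Arpc3, at -0.63, -1.35 and -1.05; Arpc1b has 30.5% shared sequence.

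Junction and polarity genes gave 14 rises and 7 falls among 35 fitted (median 0.33). The falls were near the share over all genes fitted (23.5%), while 21.8% of all genes rose. Among the increases, Dsp, which codes for desmoplakin, went from 5.07 and 1.10 to 20.2 and 22.3 CPM (2.77) and Gjb5, a connexin, from 0.563 and 1.10 to 18.1 and 29.7 CPM (4.72). Cdh1, which codes for E-cadherin, rose by 0.78 and Ezr, which codes for ezrin of the apical surface, by 1.64. Cldn4, a claudin of tight junctions, had 201 and 203 CPM in the morula plates and 40.3 and 51.1 CPM in the blastocyst plates (log2 fold -2.12, SE 0.20, edgeR adjusted p = 1.05e-07). Ocln, another tight junction gene, fell by 0.91, and Jup, which codes for plakoglobin of desmosomes and adherens junctions, by 1.05. Water channel genes differed: Aqp11 and Aqp9 fell (-2.23 and -0.77), while Aqp3 did not pass (0.42, SE 0.22).

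Among genes of adhesion to the matrix, 7 of 14 rose and 4 fell, with a median of 0.165. Of the 12 with little shared sequence, 5 rose and 4 fell, and their median was -0.73. Sdc4, the proteoglycan syndecan 4, had 98.5 and 62.9 CPM in the morula plates and 618 and 462 CPM in the blastocyst plates (log2 fold 2.75, SE 0.20, edgeR adjusted p = 2.4e-08). Itga6, the laminin receptor chain, went from 10.1 and 7.73 to 53.1 and 45.5 CPM (2.46), while its partner Itgb4 fell, from 55.2 and 64.6 to 6.37 and 17.7 CPM (-2.26). Itgb5, Itgav and Sdc1 fell (-1.97, -1.77 and -1.90). Anxa2, a membrane-binding annexin, had 18.6 and 8.28 CPM in the morula plates and 92.3 and 106 CPM in the blastocyst plates (2.89), and its partner S100a10 rose by 0.80.

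Genes of the Wnt and FGF pathways fell more often than they rose. Of 18 Wnt genes fitted, 9 fell and 2 rose (median -0.95). Myc had 90.1 and 152 CPM in the morula plates and 2.12 and 13.9 CPM in the blastocyst plates (log2 fold -3.83, SE 0.47, edgeR adjusted p = 3.99e-05). Tcf7l2, a nuclear effector of the pathway, had 63.6 and 82.2 CPM in the morula plates and 11.7 and 5.58 CPM in the blastocyst plates (-3.08). Znrf3, a ligase that removes Wnt receptors, fell by 1.72. Ctnnb1, which codes for beta-catenin and has 13.2% shared sequence, rose, from 29.8 and 21 to 114 and 126 CPM (2.25), and Wnt7b, a ligand, rose from 3.31 CPM or less (2.44).

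In the FGF-ERK list, 11 of 28 genes fell and 5 rose. The ligand Fgf4 had 27.6 and 28.1 CPM in the morula plates and 9.55 and 14.9 CPM in the blastocyst plates (-1.16). The receptors Fgfr1 and Fgfr4 fell (-1.14 and -2.18), and Fgfr2 did not pass (0.46, SE 0.33). Among feedback genes, Dusp6 and Spred1 fell (-2.03 and -2.28), while Dusp4 rose by 1.64. In the Hippo list, 4 of 17 fell, the same share as over all genes fitted (23.5%), and 1 rose: the effector Yap1 had 181 and 195 CPM in the morula plates and 53.1 and 60.4 CPM in the blastocyst plates (-1.71), the upstream regulator Nf2 fell by 1.23, and the kinase gene Stk4 rose by 0.81. Of the BMP targets, Id3 fell, with 718 and 1114 CPM in the morula plates and 125 and 254 CPM in the blastocyst plates (-2.25, SE 0.41), and Id2 rose, with 3.94 and 2.21 CPM in the morula plates and 15.9 and 30.7 CPM in the blastocyst plates (2.92).

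In the p53 list, 12 of 30 genes were higher, beside 21.8% of all genes fitted (median 0.22). Another 7 were lower, about the share over all genes fitted (23.5%). Trp53, with 10.2% shared sequence, rose by 1.51, and its ligase Mdm2 had 40.5 and 23.7 CPM in the morula plates and 118 and 126 CPM in the blastocyst plates (1.93). Btg2, an antiproliferative target, had 16.3 and 6.62 CPM in the morula plates and 66.9 and 64.1 CPM in the blastocyst plates (2.52). Pmaip1, which codes for the apoptosis promoter NOXA, had 39.4 and 28.1 CPM in the morula plates and 112 and 117 CPM in the blastocyst plates (log2 fold 1.77, SE 0.24, edgeR adjusted p = 6.34e-06). Cdkn1a, the p21 inhibitor gene, overlapped between the stages, at 303 and 340.0 to 558 and 263 CPM, and did not pass (0.36, SE 0.35). The 7 decreases included Mcl1, a survival gene related to Bcl2 (-1.58), and Ei24, a p53-induced membrane protein gene (-2.46).

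The amino acid stress list gave 9 decreases and 2 increases among 22 genes. Ddit4, an inhibitor of the growth kinase mTORC1, had 365 and 336 CPM in the morula plates and 26.5 and 31.6 CPM in the blastocyst plates (log2 fold -3.57, SE 0.20, edgeR adjusted p = 4.67e-11). Slc7a5, a carrier of large neutral amino acids, went from 68.7 and 66.2 to 14.9 and 15.8 CPM (-2.12). Trib3 and Nupr1, stress-induced regulators, fell (-1.86 and -1.18), and Asns, which makes asparagine, rose by 1.24.

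Genes of the nucleolus fell more often than they rose, 25 against 10 of 65, with a median of -0.28. Gar1, a part of the particles that modify ribosomal RNA, had 496 and 556 CPM in the morula plates and 172 and 204 CPM in the blastocyst plates (log2 fold -1.47, SE 0.15, edgeR adjusted p = 2.73e-07), and Rrs1 and Nop2, factors of the large subunit, fell (-1.50 and -1.50). Rrs1 has 15.8% shared sequence. Polr1a, the large subunit of RNA polymerase I, rose by 1.33. Messages of hnRNP proteins, which bind RNA precursors, gave 12 decreases and 3 increases among 25. Hnrnpl, a splicing regulator, had 662 and 763 CPM in the morula plates and 157 and 137 CPM in the blastocyst plates (log2 fold -2.27, SE 0.15, edgeR adjusted p = 7.78e-10). Hnrnpa3, with 28.1% shared, rose by 3.21.

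Cell cycle genes did not lean to one side: 11 of 54 replication genes rose and 11 fell, and 15 of 43 mitotic genes rose and 13 fell. The replication counts were near the shares over all genes fitted, 21.8% higher and 23.5% lower. Cdt1 and Ccne1, which license and start replication, fell (-1.48 and -1.09), as did E2f1 (-1.84). Rrm1, the large chain of ribonucleotide reductase, rose by 1.13. The phosphatase genes Cdc25a and Cdc25b fell (-1.35 and -3.53). The kinase gene Bub1 and Ect2, which acts at the end of division, rose by 1.19 and 1.11.

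Genes of energy metabolism and of protein turnover leaned upward. Of 68 nuclear genes of oxidative phosphorylation fitted, 39 rose and 1 fell, with a median of 0.42. The summed level of the list was 22990 and 22520 CPM in the morula and 30850 and 30980 CPM in the blastocyst. Among the 38 with little shared sequence, 19 rose and 1 fell (median 0.32). Ndufa5, a subunit of complex I, had 132 and 119 CPM in the morula plates and 317 and 281 CPM in the blastocyst plates (log2 fold 1.26, SE 0.16, edgeR adjusted p = 4.33e-06). Atp5a1, the alpha chain of the ATP synthase, was the decrease (-0.43).

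Of 36 proteasome genes, 23 rose and 1 fell. Psmd1, a regulatory subunit, had 158 and 141 CPM in the morula plates and 283 and 281 CPM in the blastocyst plates (0.93), and Psmc3, an ATPase of the base, rose by 0.84. Psmd3 was the decrease (-0.63). Chaperones of the endoplasmic reticulum and its translocation genes gave 15 increases and 3 decreases among 35, led among genes with little shared sequence by Pdia6, a disulfide isomerase (1.93), Xbp1, a stress-response factor (1.75), and Hspa5, the chaperone BiP, with 143 and 135 CPM in the morula plates and 443 and 309.5 CPM in the blastocyst plates (1.44). Glycolytic genes gave 11 increases and 6 decreases among 24, but of the 9 with little shared sequence 3 rose and 5 fell. Hk2 and Slc2a3, which trap and import glucose, rose by 1.01 and 1.42, and Tkt and Pgd of the pentose phosphate pathway fell (-1.85 and -0.80).

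In lipid synthesis, 12 of 29 genes rose and the other 17 did not pass (median 0.70). Scd2, a fatty acid desaturase, had 11.3 and 10.5 CPM in the morula plates and 152 and 131 CPM in the blastocyst plates (log2 fold 3.70, SE 0.26, edgeR adjusted p = 1.48e-09). Nsdhl, of cholesterol synthesis, went from 2.25 and 1.10 to 11.7 and 10.2 CPM (2.65). Redox defence genes gave 15 increases and 2 decreases among 27, with a median of 0.70. Cat, which codes for catalase, had 4.50 and 6.62 CPM in the morula plates and 53.1 and 45.5 CPM in the blastocyst plates (3.13), Nfe2l2, the factor NRF2, had 15.2 and 14.3 CPM in the morula plates and 80.7 and 47.4 CPM in the blastocyst plates (2.11), and Gsr, which reduces glutathione, fell by 1.24.

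Transcripts of the oocyte fell more often than they rose: 7 of 17 fitted fell and 3 rose (median -0.94). Npm2, a histone chaperone of the egg, had 45.6 and 42 CPM in the morula plates and 7.43 and 11.2 CPM in the blastocyst plates (-2.20), and Gdf9, an oocyte growth factor, fell by 2.32. Obox6, an early homeobox gene with 14.6% shared sequence, had 1424 and 1327 CPM in the morula plates and 262 and 366 CPM in the blastocyst plates (-2.12). Ooep, of the egg's subcortical complex, rose by 2.18. Of 14 imprinted genes fitted, 6 rose and 3 fell. Grb10, an adaptor that limits growth, had 58 and 49.7 CPM in the morula plates and 1.06 and 5.58 CPM in the blastocyst plates (log2 fold -3.92, SE 0.46, edgeR adjusted p = 1.33e-06), and Phlda2, which limits placental growth, went from 98.5 and 64 to 8.49 and 13.9 CPM (-2.82). Slc38a4, an amino acid carrier expressed from the paternal copy, had 6.19 and 6.62 CPM in the morula plates and 51 and 41.8 CPM in the blastocyst plates (2.85). Of the enzymes of DNA methylation, Tet2, which oxidises methylated cytosine, had 22 and 26.5 CPM in the morula plates and 149 and 127 CPM in the blastocyst plates (log2 fold 2.52, SE 0.23, edgeR adjusted p = 7.39e-08). Dnmt3l, a cofactor of the de novo enzymes, rose by 1.10, while Dnmt3a and Tet1 fell (-0.76 and -0.54). The Tet1 call was lost in 8 alternatives, among them DESeq2 (adjusted p = 0.159) and each fit without 1 plate (edgeR adjusted p = 0.0516 to 0.231). The Dnmt3a call was lost in 4, with DESeq2 (adjusted p = 0.101), with thinned sums, and without the second morula or the first blastocyst plate (edgeR adjusted p = 0.126 and 0.0876).

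Wells that read as female were not spread evenly over the NKX1-2 plates, and more X-linked genes rose than fell. Wells with Xist, the RNA that silences an X chromosome in female cells, and with no count of 3 Y-linked genes were 10 of 48 and 23 of 47 in the morula plates. They were 35 of 47 and 20 of 44 in the blastocyst plates. Xist had 45.6 and 74 CPM in the morula plates and 1366 and 1304 CPM in the blastocyst plates (log2 fold 4.49, SE 0.19, edgeR adjusted p = 1.43e-12), and has 12.7% shared sequence. Of 248 X-linked genes fitted, 71 rose and 38 fell, with a median of 0.22. In CTRL wells the balance went the other way, with 32 of 225 higher and 50 lower (median -0.13), where such female wells were 25 of 48 and 27 of 48 in the morula and 15 of 43 and 6 of 43 in the blastocyst. Wells with both Xist and a Y-linked gene were 7, 6, 7 and 22 of the NKX1-2 wells in the 4 plates, the last in the second blastocyst plate. The part of sex in these X-linked values was not tested. Without genes of the X and Y chromosomes, 3835 genes passed in NKX1-2 wells.

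**Figure D3:**
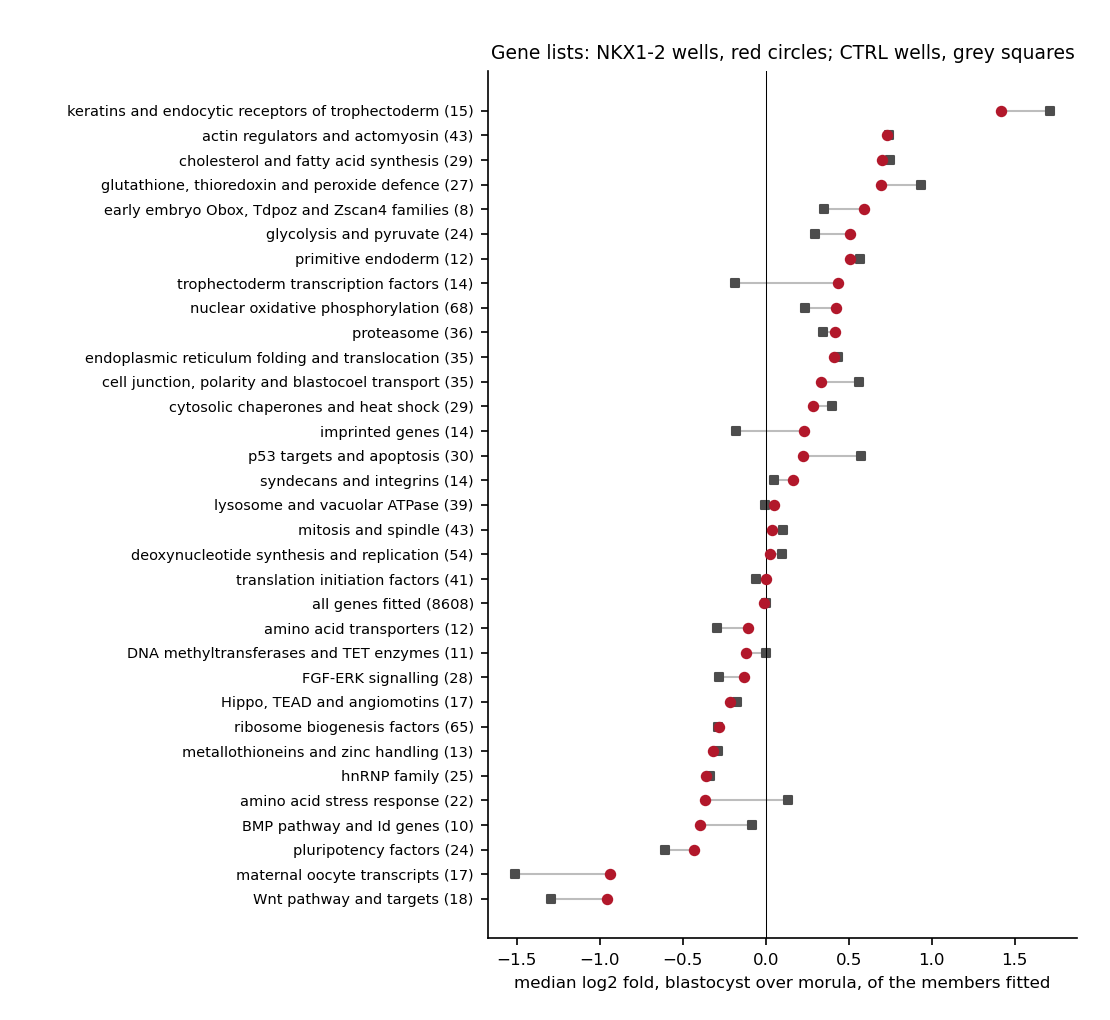
Median stage change (x axis, log2 fold) of the members fitted of each gene list (y axis, number fitted in NKX1-2 wells in brackets) in NKX1-2 wells (red circles) and CTRL wells (grey squares). The oxidative phosphorylation median was 0.42 in NKX1-2 and 0.24 in CTRL wells, and the median of all genes fitted was -0.01 and 0.00.

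The same stage change was then set beside that of CTRL wells, in which 3255 of 8235 genes passed (39.5%; 1609 higher and 1646 lower). Both contrasts use the same plates. Of the 3618 genes that passed in NKX1-2 wells and were fitted in both, 2548 also passed in CTRL wells, which is 70.4% of the NKX1-2 calls and 80.6% of the 3160 CTRL calls. In 2545 of these 2548 the direction was the same. The change was larger in NKX1-2 wells for 1158 of the 2545, the 2 values lay within 0.5 of each other for 1935, and they were over 1 apart for 179. The difference itself was tested within plates, as the stage change of NKX1-2 wells minus that of CTRL wells. Only 3 of 9107 genes passed this edgeR test (0.0329%), 2 above 0 (0.022%) and 1 below (0.011%), with 617 at an unadjusted p under 0.05; DESeq2 gave 1. Leaving out the first or the second blastocyst plate gave 196 and 200 calls, in fits where the plate left at that stage is assumed to vary like the morula pair. The 3 genes were Apoa1, 4930500L23Rik and Zbed3, and none of them has shared or overlapped sequence. For all other genes named here, a call in one group of wells and not in the other is not shown to be a difference. A difference that did not pass is likewise not shown to be absent. In simulated counts, the same test recovered 25.8% of 2-fold and 66.7% of 4-fold differences. Those counts had no stage change and no plate effect besides the differences put in. Recovery with the stage changes and near-0 levels of the real sums was not tested.

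**Figure D4:**
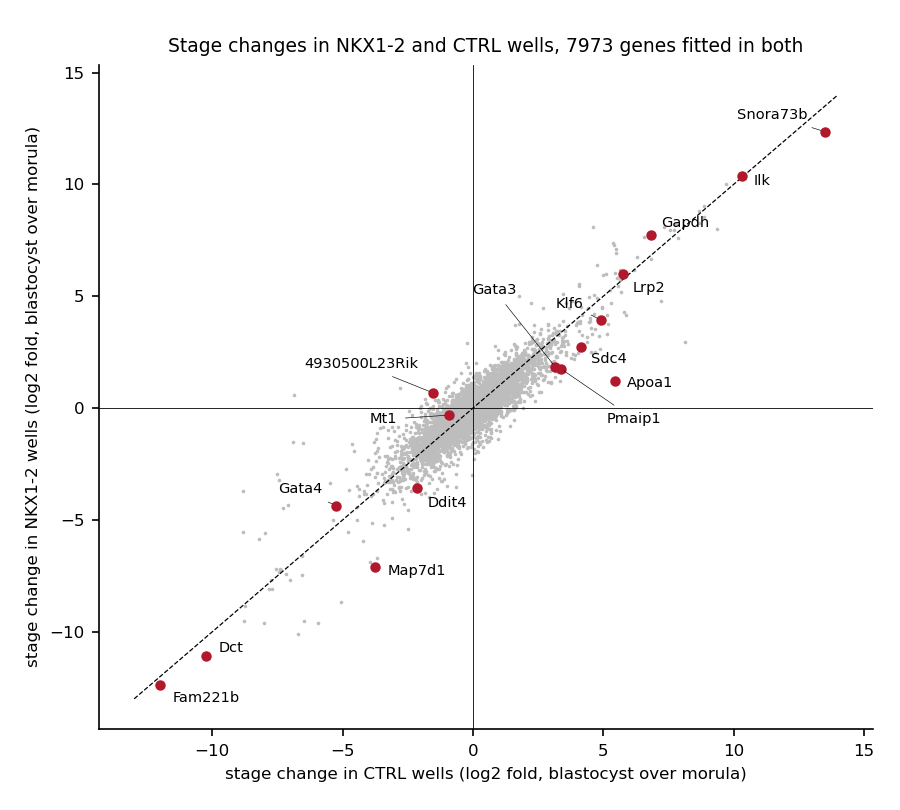
Stage change in NKX1-2 wells (y axis) against that in CTRL wells (x axis), both as log2 fold of blastocyst over morula, for the 7973 genes fitted in both; the dashed line marks equal changes and red points are named genes. Apoa1 lies at 1.21 in NKX1-2 and 5.43 in CTRL wells, below the line; genes with 0 counts in a stage lie farthest out, and their place depends on the prior count of the fit.

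The stage change of Apoa1 was much smaller in NKX1-2 wells. The gene codes for apolipoprotein A-I, the main protein of high-density lipoprotein, which takes up cholesterol from cells and is made by endoderm and liver. NKX1-2 wells had 17.4 and 24.8 CPM in the morula plates and 34 and 62.3 CPM in the blastocyst plates (log2 fold 1.21, SE 0.33, edgeR adjusted p = 0.00563). CTRL wells had 3.06 and 2.61 CPM in the morula plates and 109.5 and 139.5 CPM in the blastocyst plates (log2 fold 5.43, SE 0.38, edgeR adjusted p = 6.2e-09). Both morula plates were thus higher in NKX1-2 than in CTRL wells, and both blastocyst plates lower, without overlap. The CTRL morula levels rest on 5 and 4 counts. In the first CTRL blastocyst plate 1 well held 42.7% of the 75 counts, and in the second the highest well held 15.2%. The difference between the stage changes was -4.22, SE 0.49, edgeR adjusted p = 0.000253. It was the one call that remained in all leave-one-out fits and with DESeq2, and it did not pass with the 8 sums thinned to the smallest (-3.69, edgeR adjusted p = 0.343). Within a stage, NKX1-2 wells differed from CTRL wells by 2.84 in the morula (edgeR adjusted p = 0.0018) and -1.38 in the blastocyst (edgeR adjusted p = 0.00423). Of the 7 apolipoprotein and lipid export genes fitted for the difference, the other 6 did not pass. Apoe, another apolipoprotein gene, had 71.5 and 49.1 to 54.1 and 61.3 CPM in NKX1-2 and 71.7 and 65.2 to 146 and 123 CPM in CTRL wells (difference -1.01, SE 0.29, edgeR adjusted p = 0.424). Abca1, the membrane pump that loads cholesterol onto the apolipoprotein, had a difference of -1.74 (SE 1.34). Its stage change was 2.20 in NKX1-2 and 3.87 in CTRL wells. The morula plates held 4 and 2 Abca1 counts in NKX1-2 and 2 and 0 in CTRL wells, so the sizes of these changes rest on few counts. Apoa1 lies on chromosome 9 of GRCm38, from 46228580 to 46230466 on the forward strand in GENCODE M21. The 200 bases before that start, chr9:46228380-46228579, are shown because Apoa1 had the smallest p of all genes for the difference; they were read from RefSeq's promoter table (GRCm38.p6).
Apoa1: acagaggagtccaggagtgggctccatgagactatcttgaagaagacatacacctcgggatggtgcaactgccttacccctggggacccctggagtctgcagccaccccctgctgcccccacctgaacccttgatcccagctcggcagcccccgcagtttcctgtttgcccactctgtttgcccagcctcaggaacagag
The window holds no TAATTA or CAATTA, the core letters that many homeobox proteins bind, on either strand. Of 32851 RefSeq promoters, 9.77% hold at least 1 in a window of the same length.

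The other calls were a noncoding gene and a gene carried by 1 well. 4930500L23Rik, a long noncoding RNA gene on chromosome 5, had 63.6 and 58 CPM in the morula plates and 62.6 and 129 CPM in the blastocyst plates in NKX1-2 wells (log2 fold 0.68, SE 0.27, edgeR adjusted p = 0.0482) and 58.8 and 59.98 CPM in the morula plates and 17.5 and 22.2 CPM in the blastocyst plates in CTRL wells (log2 fold -1.53, SE 0.32, edgeR adjusted p = 0.00113). The morula plates of both groups were alike, between 58.0 and 63.6 CPM, and the blastocyst plates of CTRL wells were lower. Its difference was 2.25, SE 0.35, edgeR adjusted p = 0.0122. In the second NKX1-2 blastocyst plate, the higher of the pair, the well with most of its counts held 7.91% of them. The call was lost without the first or the second morula plate (edgeR adjusted p = 0.0533 and 0.111), with thinned sums (0.713), without the plate block (0.211) and with DESeq2 (adjusted p = 1). Zbed3, listed here among oocyte transcripts, had 7.88 and 9.94 CPM in the morula plates and 3.18 and 54.8 CPM in the blastocyst plates in NKX1-2 wells and went from 11.7 and 7.82 to 0 and 1.06 CPM in CTRL wells, where the blastocyst plates held 1 count in all, so the size of its difference depends on the prior count. Its difference was 5.67, SE 0.99, edgeR adjusted p = 0.0355. It stood out in the second NKX1-2 blastocyst plate, where 1 well held 91.5% of its counts. With the highest well of each gene taken out the difference was 5.33 and did not pass (edgeR adjusted p = 0.649), and over wells with at least 4000 genes it was 2.63, again without passing. The call was lost in 7 other alternatives, among them DESeq2, limma, the fits without the first morula or the second blastocyst plate (edgeR adjusted p = 0.184 and 0.449) and the fit without the plate block (0.906). Its stage change did not pass in NKX1-2 wells (1.75, SE 1.21).

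**Figure D5:**
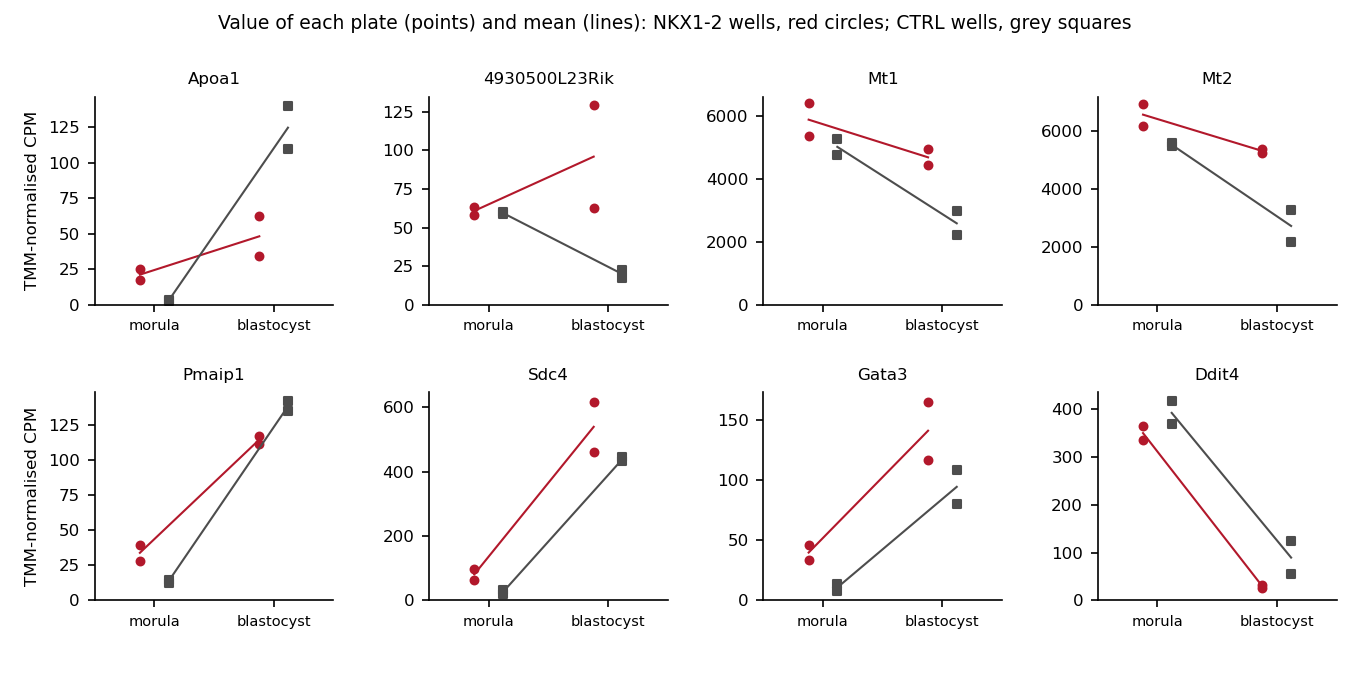
Level of 8 genes (y axis, TMM-normalised CPM, from 0) at each stage (x axis) in each plate, NKX1-2 wells as red circles and CTRL wells as grey squares; lines join the means of 2 plates. Apoa1 goes from 17.4 and 24.8 to 34 and 62.3 CPM in NKX1-2 wells and from 3.06 and 2.61 to 109.5 and 139.5 CPM in CTRL wells.

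Several genes had smaller increases in NKX1-2 than in CTRL wells, from a higher morula level, but their differences did not pass. Pmaip1 had 14.7 and 12.4 to 134 and 142 CPM in CTRL wells, and its increase was 1.77 in NKX1-2 and 3.36 in CTRL wells (difference -1.58, SE 0.33, edgeR adjusted p = 0.149). Bin1, a membrane-bending protein gene, had 29.8 and 28.1 to 36.1 and 35.3 CPM in NKX1-2 and 12.3 and 11.1 to 46.7 and 72.9 CPM in CTRL wells, with a difference of -2.06, SE 0.42, edgeR adjusted p = 0.149. For both genes the NKX1-2 morula plates lay above the CTRL morula plates. Gata3 and Sdc4 had the same arrangement: Gata3 was at 13.5 and 7.82 to 80.3 and 109 CPM in CTRL wells (difference -1.33, SE 0.43, edgeR adjusted p = 0.499), and Sdc4 at 19 and 31.9 to 432 and 446 CPM (difference -1.37, SE 0.35, edgeR adjusted p = 0.386). Btg2 was at 2.45 and 4.56 to 80.3 and 81.3 CPM in CTRL wells (difference -1.98, SE 0.57), and Atp1b1, the beta subunit of the sodium pump that fills the cavity, rose in CTRL wells by 2.27 and had 0.60 in NKX1-2 wells (difference -1.66, SE 0.41), with 16.9% shared sequence. These genes were chosen in part from earlier results on these samples, so their direction is not independent evidence.

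Some stage changes were more negative in NKX1-2 than in CTRL wells, again without passing for the difference. Ddit4 had 417 and 369 to 124 and 54.9 CPM in CTRL wells (-2.15), against -3.57 in NKX1-2 wells, a difference of -1.36, SE 0.33, edgeR adjusted p = 0.255. Ckmt1, a mitochondrial creatine kinase gene, fell in NKX1-2 wells, from 321 and 329.5 to 155 and 189 CPM (-0.91), and had 0.07 in CTRL wells (difference -0.97, SE 0.22, edgeR adjusted p = 0.218). Elobl, a gene related to Elongin B with 18.8% shared sequence, fell by 0.72 in NKX1-2 wells and rose by 0.55 in CTRL wells (difference -1.25, SE 0.24, edgeR adjusted p = 0.108). Kdelr3, a receptor that returns proteins to the endoplasmic reticulum, fell by 1.29 and had 0.64 in CTRL wells (difference -1.89, SE 0.45). Map7d1 fell in both (-7.11 in NKX1-2 and -3.75 in CTRL wells), with a difference of -3.38, SE 0.85, edgeR adjusted p = 0.256. Its blastocyst plates held 1 and 1 counts in NKX1-2 and 7 and 4 in CTRL wells, so the size of this difference rests on few counts.

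Other stage changes were more positive in NKX1-2 than in CTRL wells. Kcnk6, a potassium channel gene, had 187 and 214 CPM in the morula plates and 101 and 116 CPM in the blastocyst plates in NKX1-2 wells and 176 and 216 CPM in the morula plates and 39.4 and 50.7 CPM in the blastocyst plates in CTRL wells. Its difference was 1.23, SE 0.27, edgeR adjusted p = 0.192. Sgf29, a reader of histone methylation with 12.8% of its exonic bases overlapped, had 107 and 124 to 112 and 122 CPM in NKX1-2 and 112 and 135 to 48.2 and 57 CPM in CTRL wells (difference 1.24, SE 0.27, edgeR adjusted p = 0.192). For Kcnk6 and Sgf29 the NKX1-2 blastocyst plates lay above the CTRL ones, while the morula plates overlapped. Fstl3, a follistatin-like antagonist with 46.7% shared sequence, rose in both groups, from 1.69 and 1.10 to 47.8 and 48.3 CPM in NKX1-2 and from 3.06 and 24.8 to 55.5 and 38 CPM in CTRL wells (difference 3.22, SE 0.74, edgeR adjusted p = 0.218). Its blastocyst plates overlapped between the groups, and its morula plates were lower in NKX1-2 wells. The second CTRL morula plate held 38 of its counts, 57.9% of them in 1 well. Each other morula sum held 5 counts or fewer, so the size of its difference rests largely on few counts and 1 well.

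The metallothionein genes Mt1 and Mt2 code for small zinc-binding proteins and lie side by side on chromosome 8. Mt1 had 6391 and 5347 CPM in the morula plates and 4422 and 4927 CPM in the blastocyst plates in NKX1-2 wells (log2 fold -0.32, SE 0.12, edgeR adjusted p = 0.0416) and 5265 and 4749 CPM in the morula plates and 2202 and 2962 CPM in the blastocyst plates in CTRL wells (log2 fold -0.93, SE 0.16, edgeR adjusted p = 0.000218). Mt2, with 58.1% shared and 73.5% overlapped sequence, had 6964 and 6195 CPM in the morula plates and 5256 and 5386 CPM in the blastocyst plates in NKX1-2 wells (-0.29) and 5482 and 5594 CPM in the morula plates and 2161 and 3292 CPM in the blastocyst plates in CTRL wells (-0.997). Both NKX1-2 blastocyst plates lay above the CTRL blastocyst plates for both genes. The differences were 0.64, SE 0.15, edgeR adjusted p = 0.218 for Mt1 and 0.75, SE 0.17, edgeR adjusted p = 0.218 for Mt2, so neither passed. Among the zinc carriers, Slc39a4, an importer, fell by 1.75, and Slc30a1, an exporter that zinc induces, fell in NKX1-2 wells (-1.27) and had -0.29 in CTRL wells (difference -0.98, SE 0.45). The sequences before the starts of both genes are shown because the genes moved together and zinc acts on them through metal response elements. They come from RefSeq's promoter table (GRCm38.p6, forward strand), chr8:94178839-94179081 for Mt1 and chr8:94172368-94172617 for Mt2, and stop before the earlier of the RefSeq and GENCODE starts. Capitals mark TGCACNC or TGCGCNC, the core of the element, on either strand.
Mt1: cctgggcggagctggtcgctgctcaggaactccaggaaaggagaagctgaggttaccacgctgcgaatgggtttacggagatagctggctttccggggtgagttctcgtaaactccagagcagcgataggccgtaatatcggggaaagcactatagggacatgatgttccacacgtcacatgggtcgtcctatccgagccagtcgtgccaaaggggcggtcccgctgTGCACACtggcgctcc
Mt2: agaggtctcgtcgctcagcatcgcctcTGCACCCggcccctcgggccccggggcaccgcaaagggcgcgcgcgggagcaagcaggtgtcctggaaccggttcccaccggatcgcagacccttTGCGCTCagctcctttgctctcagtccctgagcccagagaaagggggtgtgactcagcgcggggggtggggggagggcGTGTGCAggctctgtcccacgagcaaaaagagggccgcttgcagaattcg
The window of Mt1 holds 1 match and that of Mt2 holds 3. Bases past the end of each window were not searched, so these are not counts of all such elements of either gene. At least 1 match is found in 20.7% of the 32851 promoters for the length of the Mt1 window and in 21.4% for that of Mt2. Neither window holds TAATTA or CAATTA.

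Read by list, the differences between NKX1-2 and CTRL wells are given as medians, beside a median of 0.00 over all genes fitted for the difference. That centre does not give the size of single differences, whose median SE was 0.44. Over the genes fitted both for the difference and in NKX1-2 wells, 4342 were above 0 and 4219 below. The difference was above 0 for 57 of 68 oxidative phosphorylation genes and below 0 for 11, with a median of 0.20, and none of them is among the 3 genes that passed. Their stage change had passed upward for 39 genes in NKX1-2 and for 22 in CTRL wells. The summed level of this list in CTRL wells was 22810 and 24620 CPM in the morula plates and 26250 and 30230 CPM in the blastocyst plates. In the NKX1-2 blastocyst plates it was 30850 and 30980 CPM, so the second CTRL blastocyst plate was closer to these than the first. Members of a list share the same plates, so their directions are not independent of each other. Proteasome genes were above 0 in 27 of 36 (median 0.15). Actin genes were below 0 in 28 of 43 (median -0.10), redox genes in 20 of 27 (median -0.20) and p53 and apoptosis genes in 22 of 30 (median -0.35). In the p53 list the stage median was 0.22 in NKX1-2 and 0.57 in CTRL wells. Amino acid stress genes were below 0 in 17 of 22, with stage medians of -0.37 and 0.13. X-linked genes had a median difference of 0.38 over 264 fitted, and the plates also differed in female wells, as given above. The pluripotency genes were below 0 in 14 of 23 and above in 9, with a median of -0.06. Of the list members, Apoa1, Zbed3 and 4930500L23Rik alone passed for the difference, the last as a member of a list chosen from these samples.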

How the data were processed

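The series holds 4 plates of mouse embryo wells, 2 of morulae and 2 of blastocysts, with the control morpholino in even and the NKX1-2 morpholino in odd wells, per the labels. The authors deposited whole-number counts per gene and well, with no normalisation. The submitters' processing notes name TopHat2 and the builds GRCm38 and mm10. The sources used here do not give the counting tool, its strand setting, or whether counts are reads or molecules. Wells were read for sex by Xist and by Eif2s3y, Ddx3y and Kdm5d.

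Counts were summed per plate and morpholino over wells with at least 2000 detected genes, 186 NKX1-2 and 182 CTRL wells. The genes from U2af1 to V1rg10, symbols starting Rpl, Rps or mt-, and Gm with digits were left out, 28000 of 55453; 54586 symbols matched GENCODE M21. edgeR 4.0.16 fitted genes kept by filterByExpr with TMM and the robust quasi-likelihood test, adjusted by Benjamini-Hochberg; the difference between stage changes was an interaction with plate as a block. DESeq2 1.42.0 and limma 3.58.1 (R 4.3.3) gave alternatives. The fits were tested on simulated counts, with the same mean share per gene in every sum. From this, 200 genes were changed by 2-fold or 4-fold. The test of the difference recovered 25.8% and 66.7% of these, and called 13 unchanged genes beside 88 changed ones. In NKX1-2 wells the stage test recovered 45.8% and 87%, with 16 unchanged genes called beside 124 changed ones. In CTRL wells it recovered 51.1% and 84.4%, with 10 beside 126. Replicate numbers across stages are not said to pair plates.

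Genes were named by a rule: the 15 largest changes in each direction reaching 50 CPM, list members with large changes, the genes passing for the difference or with the smallest p, and a few lineage genes. Other list members, Apoe among them, were chosen after their values were seen. Members, lists and rule were chosen with earlier results of these data known.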

Additional observations from a re-analysis of the deposited data

Results flagged for a closer look

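The stage change differed between NKX1-2 and CTRL wells, by the edgeR test of the difference itself, for Apoa1 (-4.22 on the log2 scale), 4930500L23Rik (2.25) and Zbed3 (5.67). The genes from U2af1 to V1rg10, which enter no comparison, held 1.72% and 1.71% of the counts of NKX1-2 wells in the first and second blastocyst plates and 0% in the morula plates.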

How the results depend on the processing

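The number of genes that passed between the stages in NKX1-2 wells was 3900, and it stayed within 1.5 times of this in all alternatives apart from DESeq2 (2440) and the fit without the second morula plate; leaving out each plate gave 2368 to 3573. In CTRL wells the 3255 calls moved to 1993 with DESeq2 and to 1879 to 3533 with a plate left out, lowest without the first (1972) or the second morula plate. In a fit with 1 plate at a stage, that plate was assumed to vary like the pair at the other stage. The 3 calls for the difference became 1 with DESeq2, 31 with no filter on low counts, 0 with sums thinned to the smallest, and 2 to 200 with a plate left out. The cause of these moves was not tested. The median of all genes moved by over 0.1 only with no filter, to -0.17 in NKX1-2 and -0.18 in CTRL wells. Among genes with little shared sequence, an alternative chosen after seeing the data, 2831, 2323 and 3 genes passed.

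With the replicate number as a replicate block, 4036 genes passed in NKX1-2 and 3395 in CTRL wells; with no replicate block, 1 passed for the difference. Plates with the same number had correlations of 0.0322 and 0.0684 across the stages in NKX1-2 and CTRL wells, so the pairing was not used. The plate block of the difference joins the NKX1-2 and CTRL sums of 1 plate, which had correlations of 0.213 in the morula and -0.0136 in the blastocyst.

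Of 159 named genes, 120 kept direction and side of the threshold for the stage change in NKX1-2 wells in all alternatives, and 2 of 22 did for the difference. The stage call was lost in at least 1 alternative for 31 genes, in 8 for Mt1 and Tet1, 7 for Mt2 and 4930500L23Rik, 5 for Asns and Ocln, 4 for Dnmt3a, Fgf4, Stk4 and Znrf3, 3 for Cdx2, Fgfr1, Jup, S100a10 and Wnt7b, and 1 or 2 for the others. Direction turned for genes that had not passed. Over fits without 1 plate each, the stage change ran from -1.43 to 2.62 for Zbed3, -0.28 to 0.83 for Cdkn1a, -0.10 to 0.13 for Sgf29 and -0.30 to 0.22 for Apoe. Zbed3 was at -1.13 over wells with at least 4000 genes and Sgf29 at -0.02 with no filter. Apoe was at 0.05 with thinned sums, 0.02 with ribosomal, mitochondrial and Gm genes put back, and 0.01 among genes with little shared sequence. Depth is a limit: in the genes used, the blastocyst sums hold 674777 and 917148 counts in CTRL and 905899 and 1072505 in NKX1-2 wells.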
